A study of Mus musculus with 16 samples.

Results

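Broad H3K4me3 promoters are active promoters whose trimethylated histone H3 lysine 4, instead of ending close to the gene start, runs on into the gene. Of 3925 gene windows with deposited ChIP-seq counts from endosteal mesenchymal stromal cells (MSCs), 336 were taken as broad in Bap1 WT cells. Every window carries a deposited mark, UP at 1904 and DOWN at 2021, and genes without a mark are absent. Shares over all promoters tested are therefore not shares over all genes, and a gene called measured is one with a window here. They were chosen from the WT libraries alone. On the 3789 autosomal windows, a promoter was eligible if its WT H3K4me3 within 2 kb of the gene start lay above the median of 175 CPM (counts scaled to a common library total) and its WT H3K27me3 lay below the 75th percentile (121.4 CPM). Of the 1680 eligible promoters, the 20% with the largest inner share were taken. The inner share is the percentage of the H3K4me3 counts of the whole 10 kb window that lie 1 to 3 kb inside the gene. The other 1344 eligible promoters, which met the same level criteria, serve for comparison. A gene symbol was found for 287 of the 336.

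Endosteal MSCs line the inner surface of bone. They came from Bap1 cKO mice (Prx1-cre;Bap1fl/fl), in which a Cre recombinase driven by the Prx1 promoter, active in limb mesenchyme, deletes Bap1, and from WT mice that carried the same floxed Bap1 without Cre (Bap1fl/fl), all C57BL/6J. The study's title places the question in the bone marrow niche that supports lymphocyte formation. For each genotype, 4 marks (H3K4me3, H3K27ac, H2AK119ub1 and H3K27me3) were measured in 2 libraries, 16 in all. The labels give neither the age of the mice nor whether both libraries of a group stem from different animals, so p-values measure only the spread between these libraries.

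The antibody field of the libraries titled H3K4me3 names anti-acetyl-H3K27, and that of the libraries titled H3K27ac names anti-trimethyl-H3K4. Both are called here by their titles, in both genotypes alike, and every statement on either mark carries this doubt. Total counts ran from 1283020 to 10101047 per library, each read being counted in about 3 neighbouring bins. The median broad promoter held from 78 counts in the shallowest H3K27me3 library to 3487.5 counts in the deepest H3K4me3 library. Replicates correlated across windows with r from 0.878 to 0.990, and no pair was a copy of the other. Bap1 itself was not analysed here, so the deletion was not checked in these data.

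H3K4me3 is placed at the start of transcribed genes, and H3K27ac marks active promoters and enhancers. Stretches of H3K4me3 that extend far into a gene are known from many cell types as a feature of genes that define the identity of the cell. H2AK119ub1 is placed by Polycomb repressive complex 1, and BAP1 is the deubiquitinase that removes it. H3K27me3 is placed by Polycomb repressive complex 2 and marks silenced developmental genes.

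The promoters below, from RefSeq on GRCm38.p6, belong to broad promoters that the results turn on: a bone collagen gene and a microfibril collagen gene that lost H3K27ac, a niche regulator and an adipocyte regulator, and a pair of transcription regulators that gained H3K27ac. Each runs 5′ to 3′ on the gene's strand from 250 bases before to 50 bases after the annotated start, and capitals mark CpG dinucleotides. Col1a2 lies at chr6:4505368-4505667 on the plus strand, Col6a3 at chr1:90843922-90844221 on the minus strand, Foxc1 at chr13:31806396-31806695 on the plus strand, Pparg at chr6:115360894-115361193 on the plus strand, Klf4 at chr4:55532426-55532725 on the minus strand and Tle1 at chr4:72200844-72201143 on the minus strand.
Col1a2: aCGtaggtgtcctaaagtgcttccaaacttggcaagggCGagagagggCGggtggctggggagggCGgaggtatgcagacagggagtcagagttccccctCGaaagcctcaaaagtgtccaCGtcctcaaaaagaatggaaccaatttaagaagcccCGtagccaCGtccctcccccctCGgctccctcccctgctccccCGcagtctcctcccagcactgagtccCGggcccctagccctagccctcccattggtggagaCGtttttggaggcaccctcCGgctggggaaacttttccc
Col6a3: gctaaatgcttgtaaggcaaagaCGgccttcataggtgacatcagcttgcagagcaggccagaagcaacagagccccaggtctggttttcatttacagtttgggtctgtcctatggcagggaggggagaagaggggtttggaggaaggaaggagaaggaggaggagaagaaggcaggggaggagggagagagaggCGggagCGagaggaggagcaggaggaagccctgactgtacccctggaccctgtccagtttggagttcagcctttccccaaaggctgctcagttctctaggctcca
Foxc1: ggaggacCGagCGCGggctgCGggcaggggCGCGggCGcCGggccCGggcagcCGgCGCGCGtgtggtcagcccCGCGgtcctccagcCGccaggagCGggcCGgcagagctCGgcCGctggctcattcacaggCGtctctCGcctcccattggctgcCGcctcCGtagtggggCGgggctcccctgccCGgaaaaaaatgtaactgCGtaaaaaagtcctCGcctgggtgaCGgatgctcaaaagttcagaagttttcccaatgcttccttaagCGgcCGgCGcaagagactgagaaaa
Pparg: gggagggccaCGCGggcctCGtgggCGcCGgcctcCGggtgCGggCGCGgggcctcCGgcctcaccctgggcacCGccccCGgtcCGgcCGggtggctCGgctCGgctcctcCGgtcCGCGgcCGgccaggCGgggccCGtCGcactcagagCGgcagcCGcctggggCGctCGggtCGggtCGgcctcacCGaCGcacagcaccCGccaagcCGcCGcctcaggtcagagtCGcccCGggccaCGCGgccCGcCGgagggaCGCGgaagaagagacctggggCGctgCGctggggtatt
Klf4: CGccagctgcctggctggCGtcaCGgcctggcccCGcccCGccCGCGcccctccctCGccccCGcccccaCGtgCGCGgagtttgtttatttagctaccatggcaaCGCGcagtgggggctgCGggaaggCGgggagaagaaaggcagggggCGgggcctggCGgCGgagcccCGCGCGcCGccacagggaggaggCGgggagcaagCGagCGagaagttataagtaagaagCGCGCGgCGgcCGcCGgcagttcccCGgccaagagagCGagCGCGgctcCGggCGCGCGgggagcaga
Tle1: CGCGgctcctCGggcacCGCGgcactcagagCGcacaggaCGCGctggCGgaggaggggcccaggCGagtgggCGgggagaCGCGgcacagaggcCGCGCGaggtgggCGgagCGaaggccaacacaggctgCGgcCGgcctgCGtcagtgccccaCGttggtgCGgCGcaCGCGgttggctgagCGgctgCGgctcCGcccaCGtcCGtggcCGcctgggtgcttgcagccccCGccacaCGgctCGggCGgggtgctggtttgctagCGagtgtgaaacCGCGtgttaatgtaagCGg
These 6 starts differ in base composition. Col6a3 held 3 CpG and Col1a2 held 13, whereas Foxc1 held 32, Klf4 and Tle1 held 40 each and Pparg held 44. The median of 32817 RefSeq promoters of the same length is 7. The stretch 1 to 3 kb inside the genes, on which the choice rests, is not covered by these sequences. Promoter sequences were at hand for 214 of the 336 broad promoters (63.7%), so a comparison of base composition over the whole set is void.

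The H3K4me3 of the broad promoters in WT cells is a description, since it chose them. Their inner share ran from 30.2% to 75.1%, with a median of 37.9%, against a median of 12.1% at the other eligible promoters. The choice cuts through a continuum: the lowest share inside was 30.195% and the highest outside 30.186%. Arpc1b (30.3%), which encodes a subunit of the actin-nucleating Arp2/3 complex, and Acadm (30.2%), a dehydrogenase of medium-chain fatty acids, stood just inside, and Ctps (30.2%), which makes CTP, and Cdr2l (30.1%) just outside. The largest shares among named genes were those of Zbed3 (72.0%), a zinc finger gene, Sphk1 (67.1%), which makes sphingosine 1-phosphate, Arsa (59.5%), a lysosomal sulfatase, Cflar (59.3%), an inhibitor of death receptor signalling, Arhgef25 (56.8%) and Adm (56.1%), the vasodilator adrenomedullin.

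Checked against the profile, the label broad holds for part of the set, and displaced inward holds for more of it. The WT H3K4me3 peak of a broad promoter was 1.6 kb wide at 50% of its maximum (median) against 1.1 kb at the other eligible promoters, and 107 of 336 (31.8%) against 87 of 1344 (6.47%) were at least 2 kb wide. The maximum itself lay at least 1 kb inside the gene at 66 broad promoters and at 4 others, and 0.5 to 1 kb inside at 145 broad promoters and 169 others. It lay upstream of the start at 5 broad promoters and at 321 others. Foxc1 had one of the wide profiles, at 4.85 kb, whereas Zbed3 and Arsa had peaks of 1.20 and 1.15 kb with their maxima 1.75 and 1.25 kb inside.

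**Figure D1:**
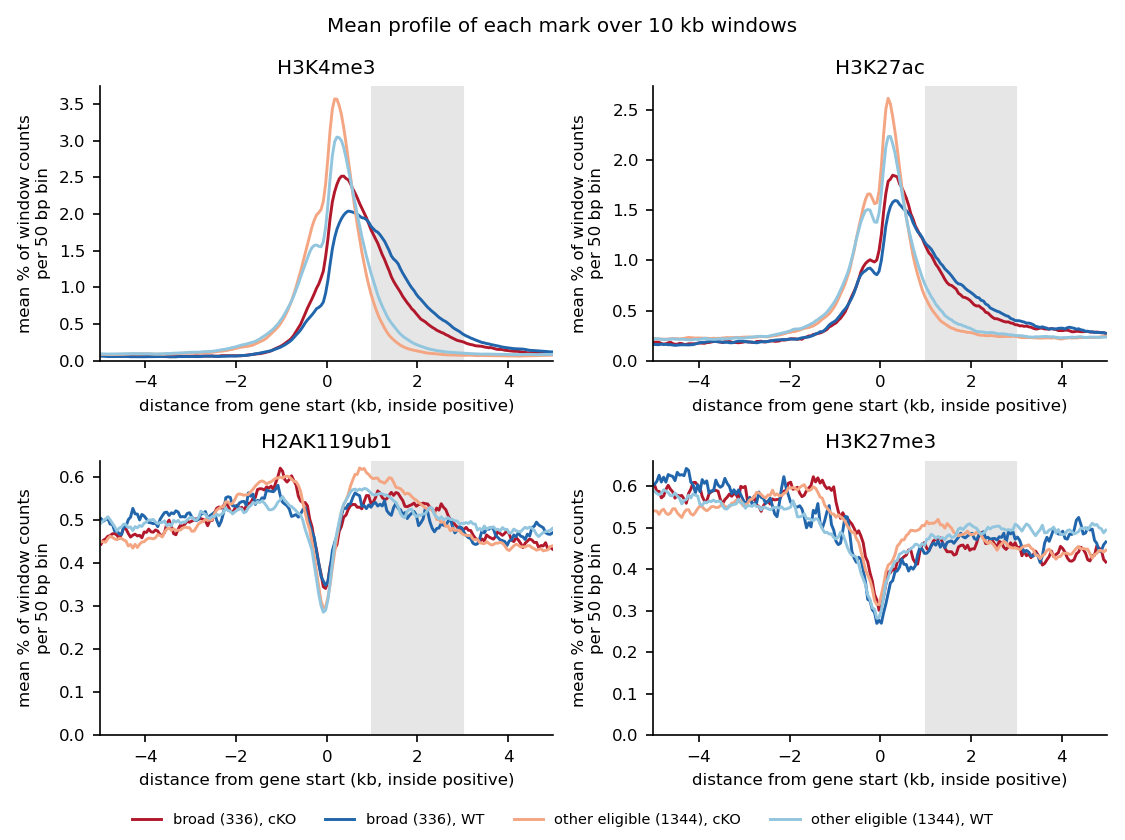
Mean profile of each mark along the 10 kb windows, with distance from the gene start in kb on the x axis (positive inside the gene) and the mean percentage of the window's counts per 50 bp bin on the y axis. Lines are the 336 broad and 1344 other eligible promoters in cKO and WT cells, and grey marks the 1 to 3 kb that chose them. H3K4me3 and H3K27ac extend further inward at broad promoters in both genotypes, while the H2AK119ub1 and H3K27me3 lines of the groups stay close.

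The choice repeated between WT libraries. Replicate 1 alone picked 335 promoters and replicate 2 alone 330, of which 278 were the same, that is 83.0% of those picked in replicate 1 and 84.2% of those picked in replicate 2. Promoters picked in replicate 1 had a median inner share of 37.0% in replicate 2, against 11.5% for the rest, and those picked in replicate 2 had 38.6% in replicate 1, against 12.6%. Defining the share as 1 to 5 kb inside kept 301 of the 336.

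In cKO cells, whose H3K4me3 libraries the rule did not use, the inner share of the broad promoters was 30.2% and 29.5% in the 2 libraries, against 39.0% and 37.3% in WT libraries (medians). The other eligible promoters had 6.40% and 6.39% in cKO libraries, against 12.7% and 11.6% in WT libraries, so the cKO values lay below the WT values in both groups of promoters. The same held for all autosomal bins pooled, of which 15.4% and 15.1% of H3K4me3 counts lay 1 to 3 kb inside in cKO libraries, against 19.9% and 18.9% in WT libraries. Peaks were 1.25 kb wide in cKO cells at broad promoters (WT 1.6 kb) and 1.0 kb at the others (WT 1.1 kb). The WT values of the broad promoters chose them for a large inner share. Their differences between genotypes are therefore partly set by the choice and only describe. The same rule run on the cKO libraries picked 313 promoters, 180 of them shared, which is 53.6% of the WT set and 57.5% of the cKO set.

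The H3K27ac libraries, also not used by the rule, had the same inward extension. In cKO libraries the median inner share of H3K27ac was 23.7% and 23.4% at broad promoters, against 11.2% and 11.6% at the other eligible promoters. In WT libraries it was 27.9% and 26.8% at broad promoters, against 14.0% and 13.5% at the others. Of the 336 broad promoters, 206 (61.3%) in cKO cells and 216 (64.3%) in WT cells were among the fifth of eligible promoters with the largest H3K27ac share. Across the 1680 eligible promoters the H3K27ac share correlated with the WT H3K4me3 share with Pearson's r of 0.71 in cKO and 0.77 in WT cells. This is a description across genes, which are not independent replicates, and the antibody doubt touches both marks.

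Neither Polycomb mark had this shape. The median inner share of H2AK119ub1 was 21.6% and 21.0% in cKO libraries, against 19.9% and 19.4% in WT libraries, at broad promoters. At the other eligible promoters it was 21.7% and 21.2% in cKO libraries, against 20.8% and 20.5% in WT libraries. All these values lie near the 20% that an even spread over the window gives, and the correlation with the WT H3K4me3 share was 0.00 in cKO and -0.08 in WT cells. H3K27me3 shares were 18.5% and 17.0% in cKO libraries, against 18.5% and 18.3% in WT libraries, at broad promoters.

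**Figure D2:**
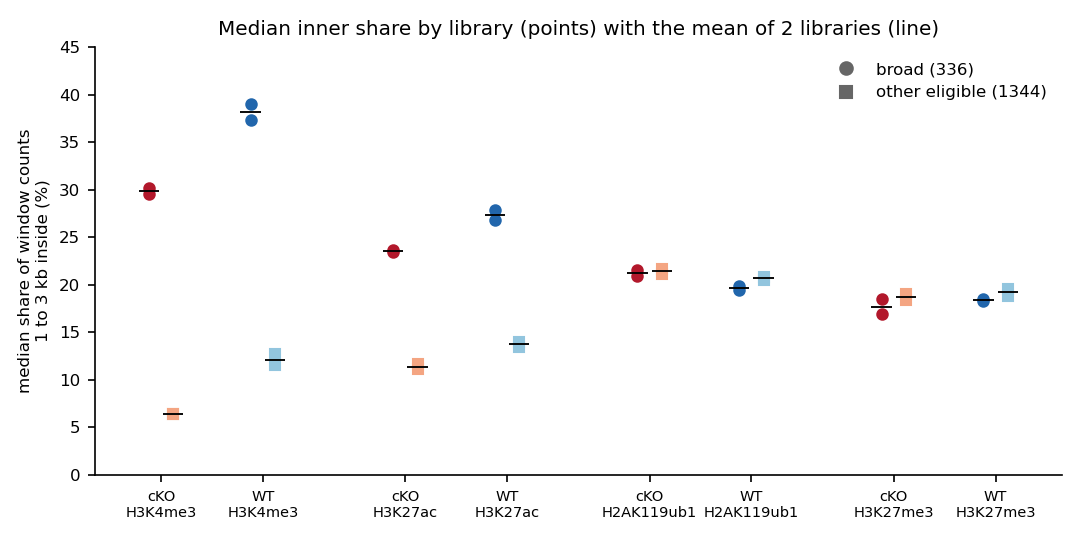
Median percentage of window counts lying 1 to 3 kb inside the gene (y axis) for each mark and genotype (x axis). Each point is 1 library, circles are the 336 broad and squares the 1344 other eligible promoters, and black lines are means of 2 libraries. For H3K4me3 and H3K27ac the circles stand well above the squares in both genotypes, and for the other marks they lie together near 20%.

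H3K27ac over the 4 kb around the start was then compared between cKO and WT cells, in libraries that played no part in the choice. The choice did rest on WT cells, so the contrast is not independent of it. Of the 163 losses given below, 136 (83.4%) were also losses of H3K4me3. This is near the 79.8% of the losses at the other eligible promoters and the 77.3% of those at all autosomal promoters. How far choosing in WT cells alone gives losses was not tested. H3K27ac fell at more broad promoters than it rose, and the losses included all 16 listed matrix genes, 3 of 4 osteoblast genes and 7 of 8 niche genes. The members and lists were chosen with earlier results of these data known, so these counts only describe. They cover the listed genes that the WT rule picked, out of 30, 10 and 18 measured in that order. Pdgfrb counts in 2 of these lists. The median broad promoter had 271 and 262 CPM in cKO libraries, against 322 and 315 CPM in WT libraries. H3K27ac was higher in cKO cells at 71 of the 336 (21.1%) and lower at 163 (48.5%) by edgeR's quasi-likelihood test with Benjamini-Hochberg adjustment over all 3892 promoters tested, of which 30.9% were higher and 29.1% lower. The other eligible promoters had 445 higher (33.1%) and 505 lower (37.6%). The median log2 change was -0.31 at broad promoters, -0.09 at the others and -0.00493 over all tested. Leaving out WT replicate 1 lowered the count of losses to 104 and leaving out WT replicate 2 to 110, while 60 and 59 gains were called.

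The deposited table marks each gene UP or DOWN, by an unstated contrast and threshold, and broad promoters were more often marked DOWN: 234 of 336 (69.6%), against 765 of 1344 others (56.9%). Within each mark the shares of calls were closer. Of the broad promoters marked DOWN, 157 of 234 lost H3K27ac (67.1%), as did 485 of 765 others (63.4%). Of those marked UP, 66 of 102 gained it (64.7%), as did 424 of 579 others (73.2%).

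**Figure D3:**
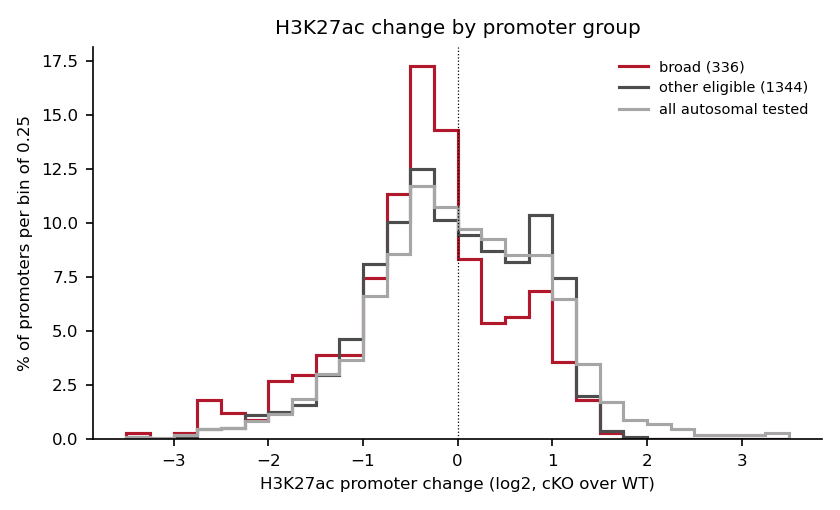
Distribution of the H3K27ac promoter change (x axis, log2 of cKO over WT; larger changes are drawn in the outermost bins) as a percentage of promoters per bin of 0.25 (y axis), for 336 broad, 1344 other eligible and all autosomal promoters tested. The broad promoters have more of their number below 0 and fewer above 0.5, with a median of -0.31.

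The place of a promoter on the chromosomes went with its change. On chromosomes 4, 7, 11 and 12, which carry 78 of the broad promoters, 46 gained H3K27ac (59.0%) and 9 lost it (11.5%). On these chromosomes 75.5% of the other eligible promoters gained H3K27ac and 8.50% lost it, and of all promoters there 60.1% gained and 10.3% lost it. H2AK119ub1 was higher at 56 of the 78 (71.8%) and lower at none, with 61.7% higher and none lower of the other eligible promoters on these chromosomes, and 44.1% higher and 3.67% lower of all promoters there (16.7% higher and 16.4% lower of all promoters tested). On the other autosomes, with 258 broad promoters, 25 gained H3K27ac (9.69%) and 154 lost it (59.7%), with 14.4% gains and 50.4% losses at the other eligible promoters and 19.1% and 36.8% over all promoters there. H2AK119ub1 there was higher at 31 broad promoters (12.02%) and lower at 14 (5.43%), with 8.26% higher and 4.83% lower of the other eligible promoters and 5.63% higher and 18.1% lower of all. These chromosomes were set apart after the values were seen. A change of DNA dose and a change of the marks over whole regions cannot be told apart without input libraries, which were not used here. The regional correction therefore takes each promoter relative to the median change of another mark at its 20 nearest genes: H2AK119ub1 for H3K27ac, and H3K27me3 for H2AK119ub1. With it, H3K27ac was higher at 56 broad promoters (16.7%) and lower at 134 (39.9%), against 314 higher (23.4%) and 395 lower (29.4%) of the other eligible promoters and 26.3% higher and 23.2% lower of all 3892 tested. Below, values with it are given where they differ by over 1.5 times from those without it. H2AK119ub1 is the substrate of BAP1, so a corrected H3K27ac change is relative to a mark that may itself change with the deletion.

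Among genes of stromal progenitors and their matrix, every broad promoter lost H3K27ac. Of 47 genes on that list, 30 were measured, 19 were eligible and 16 were broad; all 16 are marked DOWN. The 16 had a median log2 change of -0.89 in cKO cells, and none gained. Of all broad promoters marked DOWN, 67.1% lost H3K27ac. They encode fibril and network collagens (Col3a1, Col5a1, Col5a2, Col6a1, Col6a2, Col6a3), other matrix and matricellular proteins (Fn1, Ccn2, Ccn4), matrix enzymes (Loxl1, Mmp14) and surface or intracellular stromal markers (Pdgfrb, Cd44, Eng, Vim, S100a4). The count was 10 of 16 without WT replicate 1, 14 without WT replicate 2, 14 with the regional correction and 15 or 16 under the other alternatives.

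Ccn4 (ENSMUSG00000005124, 4 kb around the start at chr15:66889320-66893319), a matricellular Wnt target, had 75.4 and 58.7 CPM of H3K27ac in cKO libraries, against 477 and 400 CPM in WT libraries (log2 change -2.70 ± 0.18 SE, adjusted p = 1.47e-14). Col6a3 (ENSMUSG00000048126, chr1:90841972-90845971), a chain of the microfibrillar collagen VI, had 45.4 and 39.4 CPM in cKO libraries, against 319 and 226 CPM in WT libraries (-2.67 ± 0.20, adjusted p = 4.19e-13). Both cKO libraries lay far below both WT libraries at each of these promoters. Pdgfrb, the PDGF receptor of perivascular stroma, had 94.4 and 91.5 CPM in cKO libraries, against 449 and 403 CPM in WT libraries (-2.19 ± 0.16). Col3a1, fibrillar collagen III, had 49.3 and 54.3 CPM in cKO libraries, against 261 and 198 CPM in WT libraries (-2.14 ± 0.20). The smallest loss of the group, looked up after the values were seen, was at Fn1, fibronectin, with 533 and 484 CPM in cKO libraries, against 652 and 632 CPM in WT libraries (-0.33 ± 0.13, adjusted p = 0.0327); its call was lost with the regional correction (0.02), and without either WT library or cKO replicate 2. The 2 libraries of a genotype differed by up to 601 against 371 CPM, in WT at Col6a1.

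Of 28 osteoblast genes, 10 were measured, 5 were eligible and 4 were broad, with a median H3K27ac log2 change of -1.81. All 4 are marked DOWN and 3 lost H3K27ac, beside 67.1% of all broad promoters marked DOWN. Col1a2 (ENSMUSG00000029661, chr6:4503493-4507492), which encodes a chain of the main bone collagen, had the largest loss of all 336 broad promoters. Its H3K27ac was 49.3 and 68.6 CPM in cKO libraries, against 566 and 570 CPM in WT libraries (-3.27 ± 0.17, adjusted p = 4.69e-17). Runx2 (ENSMUSG00000039153, chr17:44812227-44816226), the transcription factor that commits cells to bone, had 72.1 and 68.3 CPM in cKO libraries, against 385 and 372 CPM in WT libraries (-2.42 ± 0.17, adjusted p = 5.95e-14). Msx2, a homeobox factor of skull and limb bone, had 73.6 and 114 CPM in cKO libraries, against 237 and 194 CPM in WT libraries (-1.20 ± 0.19).

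Col1a1, the partner chain of Col1a2, stood apart. Its H3K27ac was 171 and 150 CPM in cKO libraries, against 233 and 155 CPM in WT libraries, which did not pass the test (-0.26 ± 0.18, adjusted p = 0.220). With the regional correction it passed (-0.72, adjusted p = 0.00167), and without WT replicate 1 the estimate was 0.0978. At Col1a1 H2AK119ub1 was higher, with 228 and 226 CPM in cKO libraries, against 84.9 and 122 CPM in WT libraries (1.12 ± 0.21, adjusted p = 2.61e-06). Col1a1 lies on chromosome 11, one of the 4 chromosomes set apart above, and with the regional correction its H2AK119ub1 change was 0.41 and not called (adjusted p = 0.166). Without cKO replicate 1 it was not called either (1.12, adjusted p = 0.0629), and without any other library it was. At Col1a2 H2AK119ub1 was 102 and 128 CPM in cKO libraries, against 93.5 and 105 CPM in WT libraries, with no call.

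Of 30 genes of the haematopoietic niche, 18 were measured, 9 were eligible and 8 were broad, and 7 of the 8 lost H3K27ac (median log2 change of all 8, -0.76). Of the 8, 7 are marked DOWN, and 67.1% of all broad promoters marked DOWN lost H3K27ac. Csf1, the growth factor of macrophages, had 178 and 158 CPM in cKO libraries, against 354 and 295 CPM in WT libraries (-0.94 ± 0.16). Angpt1, a ligand of the Tie2 receptor, had 150 and 104 CPM in cKO libraries, against 235 and 261 CPM in WT libraries (-0.95 ± 0.18). Fgf7, a growth factor made by mesenchyme for epithelium, had 305 and 253 CPM in cKO libraries, against 567 and 423 CPM in WT libraries (-0.82 ± 0.16), a call lost without WT replicate 1. With the regional correction Angpt1 changed by -0.60 and Fgf7 by -0.525, both still called. Pdgfrb is on this list too. The cKO and WT libraries did not overlap at any of these 4.

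The remaining niche promoters changed less. Kitl, the stem cell factor that haematopoietic stem cells need, had 102 and 119.01 CPM in cKO libraries, against 169 and 158 CPM in WT libraries (-0.56 ± 0.18, adjusted p = 0.00874). Il15, a cytokine of natural killer and T cells, had 79.0 and 60.6 CPM in cKO libraries, against 104 and 124 CPM in WT libraries (-0.70 ± 0.22, adjusted p = 0.00562). Foxc1 (ENSMUSG00000050295, chr13:31804633-31808632), a transcription factor that maintains the niche cells rich in Cxcl12, had 461 and 433 CPM in cKO libraries, against 568 and 557 CPM in WT libraries (-0.32 ± 0.13, adjusted p = 0.0375). Ebf3, a transcription factor of the same cells, had 122 and 151 CPM in cKO libraries, against 100.2 and 133 CPM in WT libraries, and was not called (0.23 ± 0.19, adjusted p = 0.315). The count of 7 fell to 4 without WT replicate 1, to 5 without WT replicate 2 or without cKO replicate 2, and to 6 with the regional correction. Kitl, Il15, Foxc1 and Ebf3 were picked out here because they complete the group, after their values were seen. The call of Foxc1 was lost without either WT library or cKO replicate 2, that of Kitl without WT replicate 1, and that of Il15 without WT replicate 2 or cKO replicate 2 and with the regional correction (-0.45), under which Ebf3 had -0.09.

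**Figure D4:**
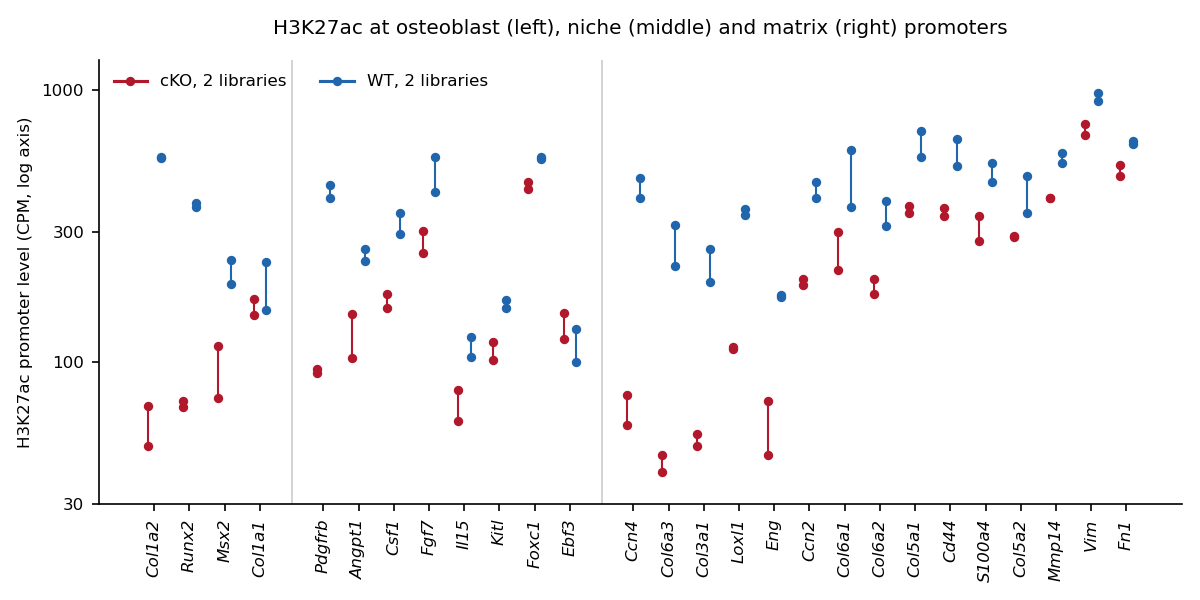
H3K27ac at the 4 kb promoters of the broad osteoblast (4 genes, left), haematopoietic niche (8, middle) and stromal matrix genes (right, without Pdgfrb, which stands in the middle), in CPM on a log axis. Each point is 1 library, cKO left of WT, and a line joins the 2 libraries of a genotype. The cKO points lie below the WT points everywhere but at Ebf3, where they overlap and lie higher, and at Col1a1, where they overlap.

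Regulators of the other mesenchymal fates and of signalling included gains and losses. Over all 336 broad promoters, 21.1% gained H3K27ac and 48.5% lost it. Of 24 adipocyte genes, 12 were measured, 8 were eligible and 3 were broad, and 1 gained H3K27ac, 1 lost it and 1 was not called. Pparg (ENSMUSG00000000440, chr6:115358951-115362950), the master regulator of fat cells, had 44.9 and 48.5 CPM of H3K27ac in cKO libraries, against 262 and 222 CPM in WT libraries (-2.37 ± 0.19, adjusted p = 2.46e-12). Its H3K4me3 peak, 0.80 kb wide in cKO cells, was 3.5 kb wide in WT cells. WT H3K4me3 chose the promoter, so these widths only describe. Pparg also has a second start of its own 1 to 3 kb inside. Klf4 (ENSMUSG00000003032, chr4:55530467-55534466), a zinc finger factor of many lineages, had 828 and 856 CPM in cKO libraries, against 339 and 324 CPM in WT libraries (1.35 ± 0.13, adjusted p = 1.79e-10). Cebpb, an early adipocyte factor, had 358 and 404 CPM in cKO libraries, against 464 and 452 CPM in WT libraries, with no call (-0.26 ± 0.14), and the estimate was 0.142 with the regional correction. Of 20 cartilage and tendon genes, 8 were measured, 2 eligible and 1 broad, Snai2, a repressor of epithelial genes, which had 223 and 181 CPM in cKO libraries, against 334 and 343 CPM in WT libraries (-0.73 ± 0.16). With the regional correction Klf4 changed by 0.75 and Snai2 by -0.44, both still called.

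Immediate early and stress transcription factors, which answer growth factors within minutes to hours, were split as well. Of 37 on the list, 15 were measured, 13 were eligible and 8 were broad: H3K27ac rose at 3 (Klf4, Hes1, Fosb), fell at 3 (Fosl1, Klf9, Junb) and was not called at Id1 and Myc. Fosl1, an AP-1 subunit that promotes bone formation in mice, had 246 and 205 CPM in cKO libraries, against 866 and 941 CPM in WT libraries (-1.99 ± 0.14, adjusted p = 1.02e-13). Klf9 had 401 and 431 CPM in cKO libraries, against 723 and 777 CPM in WT libraries (-0.84 ± 0.13), and its change was -0.37 with the regional correction, still called. Hes1, the Notch target repressor, had 1063 and 899 CPM in cKO libraries, against 548 and 408 CPM in WT libraries (1.05 ± 0.15, adjusted p = 3.66e-07). Of the 8, 6 are marked UP in the deposited table. The counts stand beside gains at 21.1% and losses at 48.5% of all 336 broad promoters.

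Of 73 signalling regulators, 27 were measured, 13 eligible and 6 broad, with 2 gains, 2 losses and 2 without a call. Gains made up 21.1% and losses 48.5% of all 336 broad promoters. Tgfb3, a ligand of the TGF-beta pathway, had 352 and 329 CPM in cKO libraries, against 212 and 172 CPM in WT libraries (0.84 ± 0.16), or 0.39 with the regional correction, still called. Hes1 is the other gain. The TGF-beta co-receptor Tgfbr3 had 158 and 153 CPM in cKO libraries, against 218 and 249 CPM in WT libraries (-0.58 ± 0.16). The Wnt receptor Fzd7 had 274 and 239 CPM in cKO libraries, against 406 and 337 CPM in WT libraries (-0.52 ± 0.15). The Wnt effector Tcf7l2 and the ligand Wnt5a were not called. The call of Fzd7 was lost without WT replicate 1 or cKO replicate 2, and that of Tgfbr3 without WT replicate 2. The windows of Tgfb3 and of 21 other broad promoters overlap that of another measured gene, so their reads cannot be told apart.

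Of 141 transcription factors of mesenchyme, 43 were measured, 30 eligible and 16 broad, with 3 gains and 8 losses. Beside these counts and those of the next list, 21.1% of all 336 broad promoters gained H3K27ac and 48.5% lost it. Maf, a bZIP factor, had 64.4 and 98.9 CPM in cKO libraries, against 359 and 322 CPM in WT libraries (-2.06 ± 0.18, adjusted p = 1.48e-11). Tbx18, a factor of limb and perivascular mesenchyme shown as one without a call and chosen after its values were seen, had 381 and 392 CPM in cKO libraries, against 414 and 408 CPM in WT libraries (-0.08 ± 0.14, adjusted p = 0.623), and with the regional correction it was called lower (-0.49, adjusted p = 0.00397). Of 49 cytoskeleton and adhesion genes, 17 were measured, 10 eligible and 5 broad. Cav1, the coat protein of caveolae (-0.69 ± 0.15), and Rhoj (-0.40 ± 0.15), lost H3K27ac, and Lasp1 and the tropomyosin gene Tpm1 (each 0.44 ± 0.16) gained it. The calls of Cav1, Lasp1 and Tpm1 were lost with the regional correction, which gave -0.33, -0.199 and 0.09 for them in that order and -0.70 for Rhoj. Those of Lasp1 and Tpm1 were also lost without WT replicate 2 or cKO replicate 1, and that of Rhoj without either WT library or cKO replicate 2.

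Few genes of the lists of general functions were measured. Of 77 chromatin regulators, 11 were measured, 6 eligible and 1 broad, Arid1b, a subunit of BAF remodelling complexes, with 703 and 707 CPM in cKO libraries, against 481 and 513 CPM in WT libraries (0.51 ± 0.13). Of 41 cell cycle genes, 8 were measured, 6 eligible and 2 broad, Mdm2, the p53 ligase (0.18 ± 0.13), and Ccnb1, cyclin B1 (0.27 ± 0.20), neither with a call (0.06 and 0.10 with the regional correction). Broad promoters were thus 16.7% of the eligible chromatin regulators and 33.3% of the eligible cell cycle genes, counts of 1 and 2 beside the 20% that the rule fixes. Of 28 housekeeping genes, 2 were measured, both eligible and neither broad. Markers of other cells that a marrow preparation could hold were little represented. Of 32 blood cell markers 4 were measured, none eligible, with WT H3K4me3 between 11.8 and 103 CPM; their summed H3K4me3 was 68.0 to 72.8 CPM in cKO libraries, against 151 to 185 CPM in WT libraries. Of 18 muscle and nerve markers 3 were measured, none eligible, with 11.9 to 78.9 CPM in WT cells; their sum was 71.2 to 75.1 CPM in cKO libraries, against 102 to 116 CPM in WT libraries. Of 16 endothelial markers 2 were measured, with 21.0 and 181 CPM in WT cells, and 1, Eng, was broad. Their sum was 16.7 to 21.3 CPM in cKO libraries, against 198 to 206 CPM in WT libraries. Eng, the higher of the 2, made up most of the WT sum. It was chosen by its WT H3K4me3 and is also 1 of the 16 matrix promoters. No measured marker was at 0, and the part of other cells in the changes was not tested. Fewer cells of a type and less of a mark per cell cannot be told apart in bulk libraries.

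Some of the H3K27ac losses and gains of lowest p were at genes on none of the lists. Srgap3, a GTPase-activating protein for Rac, had 68.5 and 69.7 CPM in cKO libraries, against 477 and 448 CPM in WT libraries (-2.74 ± 0.17, adjusted p = 1.87e-15). Among the gains, Tle1 (ENSMUSG00000008305, chr4:72198920-72202919), a Groucho family corepressor, had 512 and 460 CPM in cKO libraries, against 151 and 173 CPM in WT libraries (1.59 ± 0.15, adjusted p = 1.16e-10). Npepps, a cytosolic aminopeptidase, had 687 and 626 CPM in cKO libraries, against 236 and 231 CPM in WT libraries (1.499 ± 0.14, adjusted p = 7.12e-11). Arhgef25 had 499 and 539 CPM in cKO libraries, against 164 and 210.5 CPM in WT libraries (1.47 ± 0.15, adjusted p = 4.79e-10). Anp32b, a nuclear phosphoprotein, and Nbr1, an autophagy receptor, gained 1.33 ± 0.15 and 1.22 ± 0.13 on the log2 scale. Of these gains, Tle1, Klf4 and Anp32b lie on chromosome 4 and Npepps and Nbr1 on chromosome 11. With the regional correction these 5 changed less: Tle1 by 0.84, Npepps by 0.85, Klf4 by 0.75, Anp32b by 0.70 and Nbr1 by 0.65, all still called, while Arhgef25, on chromosome 10, had 1.4.

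H2AK119ub1, the substrate of BAP1, was higher in cKO cells at 87 of the 336 broad promoters (25.9%) and lower at 14 (4.17%), against 16.7% higher and 16.4% lower of all 3889 promoters tested. The other eligible promoters had nearly the same shares, with 331 of 1344 higher (24.6%) and 45 lower (3.35%). The median broad promoter had 124 and 120.3 CPM in cKO libraries, against 105 and 103 CPM in WT libraries, a median log2 change of 0.21 (0.23 at the others and 0.02 over all tested). These calls rest on the 2 cKO libraries together: without cKO replicate 1, 1 promoter was higher and none lower, and without cKO replicate 2, 17 were higher and none lower. With the regional correction 12.5% of the broad promoters were higher and 0.893% lower, against 9.38% higher and 1.04% lower of the other eligible promoters and 6.53% higher and 5.45% lower of all 3889 tested. Values are relative to the windows measured, and a change shared by every window could not be seen.

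The promoters with the lowest p for a gain were Fam20a, a pseudokinase of the secretory pathway, Nfe2l1, a factor that drives proteasome genes, Plpp3, a lipid phosphate phosphatase, and Pitpnc1, a lipid transfer protein. Fam20a had 213 and 212 CPM of H2AK119ub1 in cKO libraries, against 88.8 and 79.4 CPM in WT libraries (1.32 ± 0.21, adjusted p = 6.16e-08). Plpp3 had 156 and 149 CPM in cKO libraries, against 55.8 and 57.2 CPM in WT libraries (1.42 ± 0.24, adjusted p = 1.88e-07). Nfe2l1 and Pitpnc1 changed by 1.27 ± 0.21 and 1.16 ± 0.21. All 4 lie on chromosomes 4 or 11, all 4 gained H3K27ac as well, and with the regional correction Fam20a changed by 0.64 and Plpp3 by 0.86, both still called, whereas Nfe2l1 (0.46) and Pitpnc1 (0.48) were not called. Without cKO replicate 1, Fam20a, Plpp3 and Pitpnc1 were not called.

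Losses of H2AK119ub1 were led by Cebpb, Eng, Atoh8 and Adamts1. Cebpb had 91.0 and 89.8 CPM in cKO libraries, against 181 and 163 CPM in WT libraries (-0.94 ± 0.21, adjusted p = 0.000187). Eng, endoglin, a co-receptor for TGF-beta and BMP ligands, had 77.3 and 83.8 CPM in cKO libraries, against 149.9 and 133 CPM in WT libraries (-0.82 ± 0.22, adjusted p = 0.00199). Adamts1, a matrix protease, changed by -0.90 ± 0.26 and Atoh8, a bHLH factor, by -0.68 ± 0.20. Of the 4, only Eng kept its call with the regional correction, under which Cebpb changed by -0.44, Atoh8 by -0.39 and Adamts1 by -0.14, and each lost it when either cKO library was left out. Eng and Adamts1 lost H3K27ac too, and at Eng H3K4me3 was 14.9 and 9.23 CPM in cKO libraries, against 185 and 177 CPM in WT libraries. These WT H3K4me3 values lie just above the 175 CPM that the rule required of a promoter, so they only describe.

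Gains of both marks coincided at many broad promoters before the regional correction. Of the 71 that gained H3K27ac, 40 (56.3%) also gained H2AK119ub1 and none lost it; of the other eligible promoters that gained H3K27ac, 50.3% gained both, and of all autosomal ones 33.1%. With the correction applied to both marks, 2 of 56 (3.57%) gained both, against 8.92% at the other eligible and 4.29% at all autosomal promoters with a gain. Of the 163 that lost H3K27ac, 26 gained H2AK119ub1 (15.95%) and 10 lost it (6.13%), beside the 25.9% and 4.17% of all 336. Among losses of H3K27ac, 9.50% of the other eligible and 10.5% of all autosomal promoters gained H2AK119ub1. With the correction 25 of 134 (18.7%) gained it and 2 lost it (1.49%), beside 12.5% and 0.893% of all 336, and 10.6% of the other eligible and 10.1% of all autosomal losses gained it. The differences between these shares were not tested. The corrected H3K27ac change has the H2AK119ub1 change of the nearest genes taken out, so the corrected calls of both marks are linked. Where H2AK119ub1 rose over a region, the correction lowers the H3K27ac change. This can make joint gains rarer and losses of H3K27ac with gains of H2AK119ub1 more frequent. The part of this in the shares with the correction was not tested. At the 16 matrix promoters, all with less H3K27ac, H2AK119ub1 was higher at 6 and lower at 1 (median log2 change 0.40). Among them, Col6a1 had 226 and 207 CPM in cKO libraries, against 103 and 110 CPM in WT libraries (1.01 ± 0.21), and Ccn2 had 218 and 228 CPM in cKO libraries, against 145 and 105.5 CPM in WT libraries (0.82 ± 0.20). With the regional correction Col6a1 changed by 0.87 and Ccn2 by 0.57, both still called, and neither was called without cKO replicate 1, nor Ccn2 without cKO replicate 2. Col6a1 and Ccn2 were picked out after their values were seen.

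**Figure D5:**
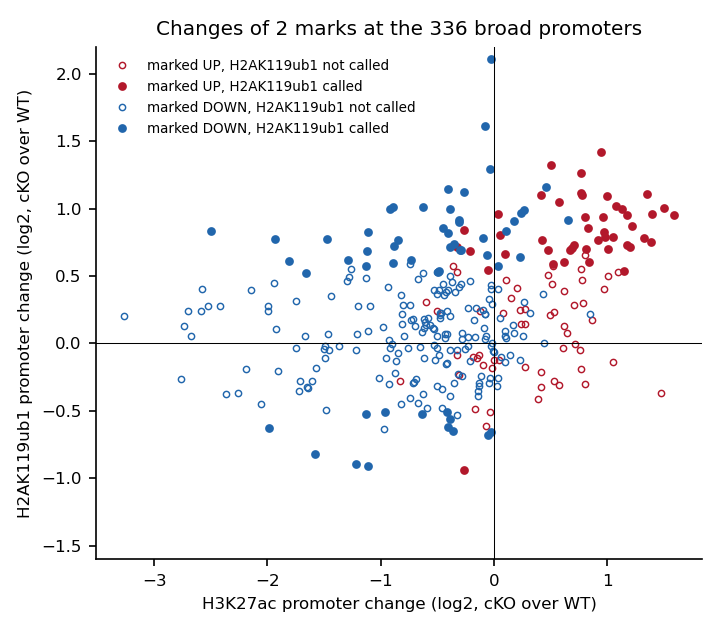
Log2 change of cKO over WT in H3K27ac (x axis) and H2AK119ub1 (y axis) at the 336 broad promoters, 1 point each, red where the deposited table marks the gene UP and blue where DOWN; filled points passed the H2AK119ub1 test. Points with gains of both marks are mostly red, and the losses of H3K27ac, down to -3.27, spread along the line of no H2AK119ub1 change.

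Within the 1 to 3 kb stretch itself, H3K27ac was higher in cKO cells at 52 broad promoters (15.5%) and lower at 159 (47.3%), against 12.7% higher and 23.2% lower of the 3852 stretches tested. The median log2 change was -0.52, and -0.33 at the other eligible promoters, of which 161 were higher and 435 lower. The median stretch held 86.1 and 86.0 CPM in cKO libraries, against 131 and 117 CPM in WT libraries. At the other eligible promoters it held 30.3 and 32.0 CPM in cKO libraries, against 41.3 and 40.0 CPM in WT libraries. A change is easier to call at higher counts, and the part of this in the shares called was not tested. The promoters were also chosen for their WT H3K4me3 in this stretch, with which the H3K27ac share correlated. Lower H3K27ac there in cKO cells may therefore be partly set by the choice, and how far was not tested. H2AK119ub1 in the same stretch was higher at 52 (15.5%) and lower at 4 (1.19%), against 7.55% higher and 8.79% lower of all tested. Of the other eligible promoters, 143 were higher (10.6%) and 40 lower (2.98%). The calls at broad promoters were lost in both directions without cKO replicate 1.

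Whether the H3K27ac that remained was drawn back toward the start was tested by the change in inner share, relative to the change common to all genes. The share was higher in cKO cells at 25 broad promoters (7.44%) and lower at 30 (8.93%), against 2.85% higher and 2.42% lower of the 3888 genes tested, and 2.83% higher and 3.2% lower of the other eligible promoters. The median log2 change of the share was -0.00276. The H3K27ac share correlated with the WT H3K4me3 share that chose the promoters, so this contrast is not independent of the choice either. How far the choice sets it was not tested. Broad promoters hold more counts in the stretch than the other eligible promoters, which makes calls in either direction easier. The part of this in the shares called was not tested. The common change itself, with 16.4% and 16.2% of all H3K27ac counts 1 to 3 kb inside in cKO libraries, against 18.9% and 18.2% in WT libraries, is taken out; with it left in, 7 were higher and 35 lower. Without WT replicate 1 the counts were 5 higher and none lower, and without WT replicate 2 they were 6 and 1. With the replicate block 4.46% were higher and 3.57% lower, and with the share taken 1 to 5 kb inside, 14.3% and 16.1%. By the deposited mark, 17 of 102 broad promoters marked UP had a higher share (16.7%) and none a lower one, with 4.09% higher and 0.956% lower of all genes marked UP. Of 234 marked DOWN, 8 had a higher share (3.42%) and 30 a lower one (12.8%), with 1.7% higher and 3.79% lower of all genes marked DOWN.

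Hlx, a homeobox gene of mesenchyme, had 9.90% and 10.8% of its H3K27ac 1 to 3 kb inside in cKO libraries, against 30.4% and 27.6% in WT libraries (log2 change -1.599 ± 0.28, adjusted p = 0.00404). Sh3bp4, an adaptor of endocytosis, had 8.58% and 8.47% in cKO libraries, against 24.6% and 21.6% in WT libraries (-1.46 ± 0.24), and Kctd11, a ubiquitin ligase adaptor, had 16.2% and 14.8% in cKO libraries, against 33.8% and 30.8% in WT libraries (-1.15 ± 0.20). Prr13 had 26.7% and 27.5% in cKO libraries, against 57.7% and 47.1% in WT libraries (-1.34 ± 0.24). In the other direction, the share of Tcf7l2, the Wnt effector, was 54.4% and 56.2% in cKO libraries, against 39.3% and 41.0% in WT libraries (1.10 ± 0.15, adjusted p = 0.00119), at an H3K27ac level that was not called. Foxc1 had 33.8% and 28.5% in cKO libraries, against 21.2% and 21.4% in WT libraries (0.96 ± 0.16), Pim1, a survival kinase, 29.7% and 26.6% in cKO libraries, against 18.6% and 19.0% in WT libraries (0.98 ± 0.16), and Hoxc6, a homeobox gene of the trunk and limb, 39.8% and 39.3% in cKO libraries, against 30.1% and 29.5% in WT libraries (0.85 ± 0.13). Of these 8 calls, 6 were lost without WT replicate 1 (Foxc1, Pim1, Hlx, Kctd11, Prr13, Sh3bp4) and 4 without WT replicate 2 (Foxc1, Hlx, Kctd11, Sh3bp4). With the share taken 1 to 5 kb inside, Tcf7l2 changed by 0.525 and Foxc1 by 1.58, both still called.

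The H3K4me3 and H3K27me3 contrasts share their WT libraries with the choice, so they are described and support nothing. H3K4me3 was higher at 99 and lower at 163 broad promoters, against 40.5% higher and 31.8% lower of all tested, with a median of 356 and 350 CPM in cKO libraries, against 403 and 401 CPM in WT libraries. The largest differences among named genes were at Runx2, with 18.6 and 20.9 CPM in cKO libraries, against 566 and 479 CPM in WT libraries, and at Col6a3, with 17.7 and 21.1 CPM in cKO libraries, against 441 and 406 CPM in WT libraries. H3K27me3 was higher at 49 and lower at 3, against 12.4% higher and 15.6% lower of all tested; the broad promoters had to be low in WT H3K27me3.

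The annotation offers features that the choice did not use. Another RefSeq gene start on either strand lay 1 to 3 kb inside 27 of 327 broad promoters with an annotated position (8.26%), against 28 of 1308 others (2.14%), and a second start of the same gene lay inside 12 broad promoters and 9 others. Zbed3, Sphk1, Pparg, Pim1 and Cav1 had such a second start of their own, and Arsa and Cebpb one of another gene. A window shared with another measured gene was rarer, at 22 of 336 (6.55%) against 196 of 1344 (14.6%). The median gene length was 24734 bases, against 25701.5 bases at the other eligible genes. Broad promoters made up from 12.4% of the eligible on chromosome 7 to 31.1% on chromosome 13. Without those that share a window or hold another start, 282 broad promoters remained, of which H3K27ac was higher at 58 and lower at 138.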

How the data were processed

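The deposited table holds counts per 50 bp bin over 10 kb windows around gene starts, on GRCm38. Tools listed per the submitters' processing notes are bedtools 2.30.0, SAMtools 1.9, Picard 2.25.5, Bowtie2 2.4.5 and cutadapt 1.18, with no order or role. The counts are whole numbers as deposited, with 98.3% of short runs of single counts 3 bins long, so neighbouring bins share reads. Bins were summed over 4 kb around the start and over 1 to 3 kb inside, and levels are CPM of the autosomal sum. Counts were tested with edgeR 4.0.16 in R 4.3.3 (TMM on autosomal windows, quasi-likelihood test, Benjamini-Hochberg adjusted p at or under 0.05, filterByExpr with a minimum count of 10), 2 cKO against 2 WT libraries per mark. The inner share was tested as the genotype by region interaction over the counts 1 to 3 kb inside and in the rest of the window, each with its own library sizes. The scripts were tested on simulated data.

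Names came from RefSeq by position, within 500 bases, for 3330 of 3925 windows (84.8%). With all windows shifted by 20 kb, 1.17% were named. The members and lists were chosen with earlier results of these data known. Named genes are those with the largest WT share, those beside the threshold, those of lowest p in each direction (6 for H3K27ac, 4 for H2AK119ub1 and for the share) and at most 4 of each list; a result that this rule selects is not reported here. Alternatives were DESeq2 1.42.0, no TMM, no filter, 1 bin in 3, the replicate block, the regional correction, each library left out, and stricter or cleaner members. Members with no symbol were counted but not named.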

Additional observations from a re-analysis of the deposited data

How the results depend on the processing

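Percentages here are of broad promoters called. Leaving out each library in turn gave 31.0% to 48.2% lower in H3K27ac, 0.298% to 22.9% higher and 0% to 3.87% lower in H2AK119ub1, and 8.33% to 13.7% higher and 0% to 0.893% lower in H3K27me3. In the 1 to 3 kb stretch it gave 8.33% to 16.7% higher in H3K27ac, and 0% to 7.74% higher and 0% to 0.298% lower in H2AK119ub1. For the H3K27ac inner share it gave 1.49% to 8.63% higher and 0% to 11.3% lower. The regional correction gave 12.5% higher and 0.893% lower in H2AK119ub1, 10.1% higher in H3K27ac of the stretch, and 5.36% higher and 0% lower in H2AK119ub1 of the stretch. H3K27me3 was lower at 0% with DESeq2 and at 0.355% of the members without another start or a shared window, and H2AK119ub1 of the stretch was lower at 0% of the 10% with the largest share. The inner share was higher at 2.08% with whole-window library sizes, and higher at 14.3% and lower at 16.1% when taken 1 to 5 kb inside. With the replicate block it was higher at 4.46% and lower at 3.57%; the block left the other percentages within 1.5 times. Replicate differences of cKO and WT libraries correlated with r from -0.04 to 0.11 over the marks. Same-numbered libraries thus deviated together little, which does not show whether they share a preparation. The H3K27ac estimates of Col1a1, Cebpb, Lasp1, Fn1 and Ebf3 changed sign. Col1a1 lay between -0.501 and 0.0978 when a library was left out (0.0978 without WT replicate 1). With the regional correction Cebpb had 0.142, Lasp1 -0.199, Fn1 0.02 and Ebf3 -0.09. The cause was not tested. The chromosome split and the joint calls with the regional correction were chosen after seeing the data. At 78 counts for the median promoter in the shallowest H3K27me3 library, small changes of that mark were not detectable.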
